A study of Mus musculus with 16 samples.

Results

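Oncostatin M, leukaemia inhibitory factor, interleukin-6 and interleukin-11 signal through receptors that share the subunit gp130, and 10 genes of that axis and its neighbours were followed in hearts whose cardiomyocytes were targeted for AKT1, AKT2 or both kinases. They are the receptor subunits Osmr, Il6st (gp130), Il6ra, Lifr and Il11ra1, the transcription factor Stat3, its feedback inhibitor Socs3, the stress gene Sprr1a, and the receptors Tnfrsf12a and Il1r1. They were taken as every array probe whose RefSeq accession belongs to a gene of this list, whatever its value. That gave 16 probes for the 10 genes, out of 56605 probes and 22911 gene symbols on the arrays. All 10 genes had a probe past the filter on dim signal, Sprr1a only through the double knockout arrays, and they are 10 of the 13725 genes tested.

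RNA from the heart apex of 16 male C57Bl/6 mice, 3 months old, was hybridised to 1-colour Agilent mouse arrays, 1 array per mouse and 4 mice per group. The AKT1+AKT2 DKO group (hereafter DKO) was homozygous for loxP-flanked alleles of both genes, the AKT1 KO group for AKT1 (exons 6 and 7) and the AKT2 KO group for AKT2 (exons 5 and 6). All 3 knockout groups and the control group were heterozygous for MHC-mercremer, a tamoxifen-switched Cre recombinase driven by the αMHC promoter, which is active in cardiomyocytes, so the deletion is directed at these and not at the other cells of the apex. Induction was the same in all 4 groups, with 500 µg hydroxytamoxifen daily over 5 days and tissue collected at day 21 from induction; the control mice differed in carrying no floxed allele. The sample titles read "untreated", and the labels' protocol lists no treatment beyond tamoxifen.

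When a cytokine of this family binds, gp130 pairs with a partner such as Osmr or Lifr, Janus kinases phosphorylate the receptor tails, and STAT3 enters the nucleus and switches on genes that include Socs3, whose product then blocks the receptor. In the heart this pathway is known for its part in cardiomyocyte survival, growth and remodelling under load. Sprr1a, first known from the cornified layer of skin, is induced in stressed cardiomyocytes by gp130 cytokines. Tnfrsf12a (Fn14) is the receptor of the cytokine TWEAK, and Il1r1 is the signalling receptor of interleukin-1.

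Levels below are log2 intensities scaled so that 0 is the 75th percentile of all probes on that array, and they compare arrays for 1 probe, not probes with each other. Differences are log2 changes from limma, with p adjusted by the Benjamini-Hochberg method over the 13725 genes and a threshold of 0.05. In the DKO hearts 44.0% of all tested genes passed that threshold against control, 23.7% higher and 20.3% lower, and any count of members is read against those shares. Akt2 stood at 3.46 ± 0.09 in the DKO, 5.32 ± 0.21 in the AKT1 KO, 3.07 ± 0.11 in the AKT2 KO and 5.46 ± 0.06 in the control hearts (SD, n = 4 each). The Akt1 probe read 5.66 ± 0.07, 5.77 ± 0.29, 5.70 ± 0.11 and 5.69 ± 0.04 in the same order of groups, and where it lies relative to the deleted exons is not known here, so it does not check the AKT1 label. DKO replicate 3 stood apart from its group, at 78.6 on the first principal component of all genes against 42.6 to 47.8 for the other DKO arrays and -22.9 to -12.3 for the rest, and each member is therefore given with and without it where that matters. The 2 slides held 2 arrays of every group, but each group always lay in 1 column of the slide, so column and group cannot be told apart.

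The 300 bases around the start of transcription are shown for 4 members whose RNA rose most, because their promoters differ in which regulatory motifs they hold. They are RefSeq sequences of GRCm38.p6, most of each window lying upstream of the start, read 5′ to 3′ on the strand of the gene. Capitals mark every match on either strand to 4 motifs: TTCNNNGAA bound by STAT factors, TGANTCA bound by AP-1, CATTCC bound by TEAD factors and GTAAACA bound by FoxO factors, which AKT holds out of the nucleus. The Sprr1a window (chr3:92485832-92486131, minus strand) and the Osmr window (chr15:6874264-6874563, minus strand) hold AP-1 matches, the Socs3 window (chr11:117969317-117969616, minus strand) holds a STAT match, and the Tnfrsf12a window (chr17:23677400-23677699, minus strand) holds none of the 4.
Sprr1a: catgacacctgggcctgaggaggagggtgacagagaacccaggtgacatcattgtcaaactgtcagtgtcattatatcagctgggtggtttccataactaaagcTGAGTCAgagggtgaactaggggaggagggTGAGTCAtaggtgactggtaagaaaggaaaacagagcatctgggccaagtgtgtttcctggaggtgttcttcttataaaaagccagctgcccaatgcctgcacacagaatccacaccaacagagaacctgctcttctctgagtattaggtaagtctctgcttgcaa
Osmr: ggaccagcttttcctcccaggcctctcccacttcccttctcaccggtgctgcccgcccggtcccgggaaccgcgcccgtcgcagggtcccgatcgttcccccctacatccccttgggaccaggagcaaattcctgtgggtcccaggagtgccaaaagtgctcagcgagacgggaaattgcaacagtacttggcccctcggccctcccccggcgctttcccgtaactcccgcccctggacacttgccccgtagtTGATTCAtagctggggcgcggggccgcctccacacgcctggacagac
Socs3: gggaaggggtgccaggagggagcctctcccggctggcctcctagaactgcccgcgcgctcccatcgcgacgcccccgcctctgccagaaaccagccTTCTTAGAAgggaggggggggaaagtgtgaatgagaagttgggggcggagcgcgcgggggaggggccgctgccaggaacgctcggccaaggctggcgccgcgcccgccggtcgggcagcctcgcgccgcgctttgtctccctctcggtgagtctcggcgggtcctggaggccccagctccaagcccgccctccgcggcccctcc
Tnfrsf12a: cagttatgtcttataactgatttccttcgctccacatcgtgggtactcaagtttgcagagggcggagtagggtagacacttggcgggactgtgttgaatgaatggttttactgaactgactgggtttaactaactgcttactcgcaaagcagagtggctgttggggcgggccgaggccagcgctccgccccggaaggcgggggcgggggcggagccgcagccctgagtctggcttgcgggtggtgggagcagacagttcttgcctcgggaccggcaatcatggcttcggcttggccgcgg

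Sprr1a carried 2 copies of the AP-1 match TGAGTCA, starting at -146 and -116 relative to the start of transcription. In Osmr the AP-1 match TGATTCA began at 4, just past the start, and in Socs3 the STAT match TTCTTAGAA began at -154. Of the other members, Stat3 had 2 TEAD matches, and Il1r1 had 2 and Il11ra1 had 1 in their second windows, while Il6st, Il6ra and Lifr had no match to any of the 4, and no member window held the FoxO letters. Among 32851 promoter windows of the same length, 8.3% held the STAT letters, 7.81% the AP-1 letters, 14.7% the TEAD letters and 3.65% the FoxO letters. A match describes the letters only, and these data hold no measurement of binding.

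The question asked first was what loss of both kinases changed in these genes. Against control, 8 of the 10 members were higher in DKO hearts and none was lower, where 23.7% of all tested genes were called higher. Sprr1a, Tnfrsf12a, Socs3 and Osmr rose most, Il6st, Stat3, Il1r1 and Il6ra rose by smaller amounts, and Lifr and Il11ra1 did not pass the test. Sprr1a passed the filter only through the DKO arrays and so had to differ. Of the 9 others 7 were higher, with a median change of 0.68 beside 0.018 for all tested genes. For the same 8 members the 4 DKO hearts lay above all 4 control hearts, and for Lifr they lay below; for 43.4% of all tested genes the 4 DKO hearts lay to 1 side of all controls. Without DKO replicate 3 the same 8 genes passed and Il11ra1 joined them. With 2 arrays a group, 6 members passed within slide 1 and 3 within slide 2 (Osmr, Sprr1a and Tnfrsf12a).

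**Figure D1:**
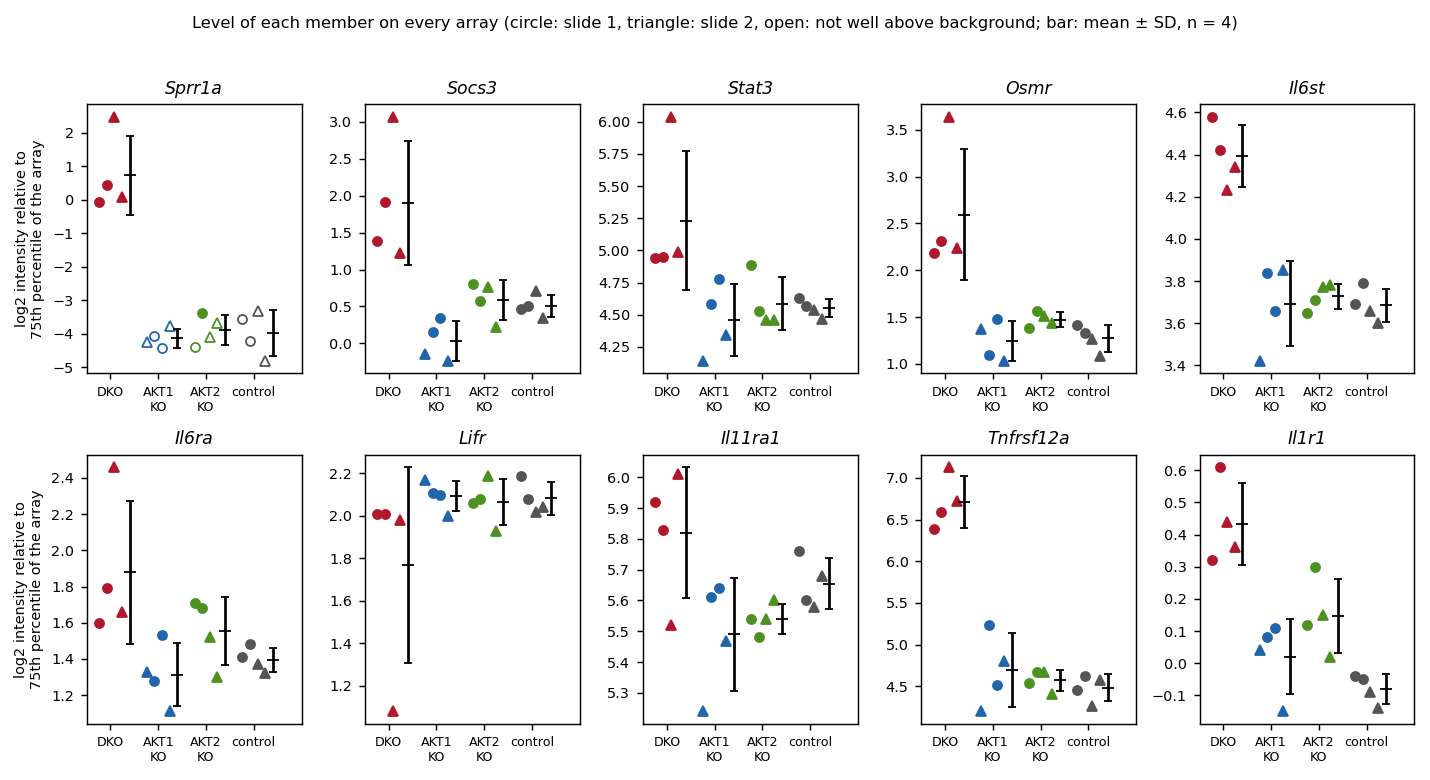
Level of the 10 members on every array, as log2 intensity relative to the array's 75th percentile (vertical axis), for DKO, AKT1 KO, AKT2 KO and control hearts (horizontal axis). Each point is 1 mouse and the bars show mean ± SD (n = 4); DKO replicate 3 is the highest DKO point for Osmr, Stat3, Socs3, Sprr1a, Tnfrsf12a and Il6ra and the lowest for Il6st, Lifr and Il11ra1.

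Among the gp130 receptor subunits, Osmr had the largest change. Osmr encodes the subunit that pairs with gp130 to bind oncostatin M. Its levels were 2.18, 2.31, 3.64 and 2.24 in DKO replicates 1 to 4, 1.37, 1.10, 1.48 and 1.03 in AKT1 KO, 1.38, 1.56, 1.51 and 1.44 in AKT2 KO, and 1.42, 1.33, 1.27 and 1.08 in control hearts. All 4 DKO hearts lay above all 12 others, DKO replicate 3 stood far above the other 3, and both single knockouts overlapped with control. The log2 change in DKO hearts against control was 1.32 ± 0.25 (SE), or 2.49-fold, with a limma adjusted p of 5.73e-04. Without DKO replicate 3 it was 0.968, with an adjusted p of 8.69e-06. On slide 1 it was 0.87, and on slide 2, which holds DKO replicate 3, it was 1.76. A second, dimmer Osmr probe missed the filter: it read -2.37, -2.39, -1.14 and -2.89 in DKO hearts and -3.31, -4.00, -3.98 and -3.72 in control hearts, and lay well above background on 3 DKO arrays and 1 control array. On it too every DKO heart lay above every control heart.

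Il6st encodes gp130 itself, the subunit that the receptors of these cytokines share. It read 4.58, 4.42, 4.23 and 4.34 in DKO, 3.42, 3.84, 3.66 and 3.85 in AKT1 KO, 3.65, 3.71, 3.77 and 3.78 in AKT2 KO, and 3.69, 3.79, 3.66 and 3.60 in control hearts. The 4 DKO hearts lay above all others, within a narrow range, and here DKO replicate 3 was the lowest of them. The change against control was 0.71 ± 0.10, or 1.64-fold (limma adjusted p 6.69e-05), and was 0.76 on slide 1 and 0.66 on slide 2. The second Il6st probe gave 0.22, 0.11, -0.09 and 0.23 in DKO hearts, against -0.45, -0.58, -0.75 and -0.61 in control hearts. Its log2 change was 0.71, with an adjusted p of 8.06e-05 over all kept probes, so both probes of the gene gave the same size of change.

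The remaining receptor subunits moved less. Il6ra, the subunit that captures interleukin-6, read 1.60, 1.79, 2.46 and 1.66 in DKO, 1.33, 1.28, 1.53 and 1.11 in AKT1 KO, 1.71, 1.68, 1.52 and 1.30 in AKT2 KO, and 1.41, 1.48, 1.37 and 1.32 in control hearts. All 4 DKO hearts lay above the controls but they overlapped with the AKT2 KO hearts. The change against control was 0.48 ± 0.16, or 1.40-fold (limma adjusted p 0.0248), and 0.289 without DKO replicate 3 (adjusted p 0.0429). This was the least stable of the 8 calls: it was lost in 6 of 30 alternatives, among them the fits without control replicate 3 (0.475, adjusted p 0.0527) or control replicate 4 (0.457, 0.0621). The second Il6ra probe was well above background on 2 DKO, 2 AKT1 KO, 2 AKT2 KO and 1 control array, and was not tested.

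Lifr encodes the partner of gp130 for leukaemia inhibitory factor and cardiotrophin-1. Its brightest probe read 2.01, 2.01, 1.08 and 1.98 in DKO, 2.17, 2.11, 2.10 and 2.00 in AKT1 KO, 2.06, 2.08, 2.19 and 1.93 in AKT2 KO, and 2.19, 2.08, 2.02 and 2.04 in control hearts. Each DKO heart lay below each control heart, 3 of them by little and DKO replicate 3 by far more. The change was -0.32 ± 0.16 (limma adjusted p 0.132), and -0.0848 without DKO replicate 3 (adjusted p 0.342). The 3 Lifr probes disagreed. The next probe gave a change of -0.01 (adjusted p 0.951 over all kept probes), while the dimmest, designed to another Lifr transcript, read -0.29, -0.09, -0.17 and -0.57 in DKO hearts, against -0.60, -0.85, -0.85 and -0.88 in control hearts, a rise of 0.51 (adjusted p 0.00604). Every DKO heart lay above every control heart on this dimmest probe, and which transcripts each probe binds is not known here. With the mean of the 3 probes in place of the brightest, the change was 0.0621 (adjusted p 0.572).

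Il11ra1, the interleukin-11 receptor subunit, read 5.92, 5.83, 5.52 and 6.01 in DKO, 5.24, 5.61, 5.64 and 5.47 in AKT1 KO, 5.54, 5.48, 5.54 and 5.60 in AKT2 KO, and 5.76, 5.60, 5.58 and 5.68 in control hearts. DKO replicates 1, 2 and 4 lay above every control heart and replicate 3 below every control heart. The change of 0.17 ± 0.11 did not pass the test (limma adjusted p 0.231; 95% interval -0.07 to 0.40), and it was 0.267 without DKO replicate 3 (adjusted p 0.0264). The near-identical copy Il11ra2 has no probe here, so the signal may hold RNA of both and the value is uncertain.

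**Figure D2:**
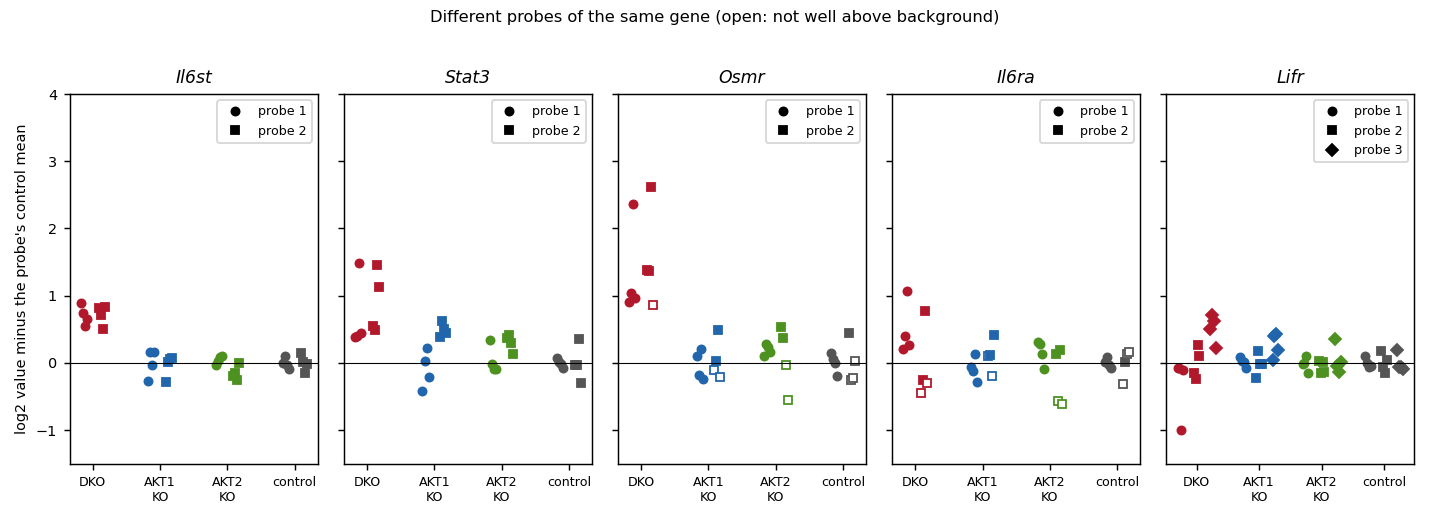
Arrays of the 5 members with more than 1 probe, each probe set to its own mean over the control arrays (vertical axis, log2), in DKO, AKT1 KO, AKT2 KO and control hearts (horizontal axis). Each point is 1 array and open symbols were not well above background; both Il6st probes and both Stat3 probes were higher in DKO than in control hearts, whereas the 3 Lifr probes went different ways.

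Downstream of the receptors, Stat3 and Socs3 both rose. Stat3, the main transcription factor of the pathway, read 4.94, 4.95, 6.04 and 4.99 in DKO, 4.14, 4.58, 4.78 and 4.34 in AKT1 KO, 4.89, 4.53, 4.46 and 4.46 in AKT2 KO, and 4.63, 4.57, 4.54 and 4.47 in control hearts. Every DKO heart lay above the other 12, but DKO replicates 1, 2 and 4 were only just above AKT2 KO replicate 1. The change against control was 0.68 ± 0.21, or 1.60-fold (limma adjusted p 0.0177). It was 0.35 on slide 1 and 1.01 on slide 2, and 0.41 without DKO replicate 3 (adjusted p 0.0221). The call was lost within each slide alone, and when DKO and control arrays were fitted without the other 2 groups. On the second Stat3 probe, designed to another transcript, DKO hearts read -1.48, -1.54, -0.57 and -0.90 and control hearts -2.06, -2.05, -1.67 and -2.32. All DKO hearts were again higher, by 0.90 on average (adjusted p 0.00145 over all kept probes). On this probe the AKT1 KO hearts, at -1.64, -1.40, -1.52 and -1.58, also lay above every control heart and overlapped with the DKO hearts, a difference from control of 0.49 that did not pass (adjusted p 0.553). The measurement is of RNA, and STAT3 phosphorylation was not measured.

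Socs3, the inhibitor that STAT3 induces, read 1.38, 1.92, 3.07 and 1.23 in DKO, -0.14, 0.16, 0.35 and -0.24 in AKT1 KO, 0.81, 0.57, 0.76 and 0.22 in AKT2 KO, and 0.47, 0.51, 0.71 and 0.34 in control hearts. No DKO heart overlapped with any other group, and 3 of 4 AKT1 KO hearts lay below the lowest control heart. The change against control was 1.40 ± 0.30, or 2.63-fold (limma adjusted p 0.00174), and 1.01 without DKO replicate 3 (adjusted p 5.83e-04). It was 1.16 on slide 1 and 1.63 on slide 2.

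Sprr1a showed the widest difference of the 10 members. Its levels were -0.06, 0.44, 2.48 and 0.08 in DKO, -4.25, -4.07, -4.43 and -3.77 in AKT1 KO, -4.40, -3.37, -4.10 and -3.66 in AKT2 KO, and -3.54, -4.22, -3.31 and -4.81 in control hearts. The probe was well above background on 4 of 4 DKO arrays, 0 of 4 AKT1 KO arrays, 1 of 4 AKT2 KO arrays and 0 of 4 control arrays, so the levels outside the DKO group, apart from AKT2 KO replicate 2, lie at background. With the dim arrays raised to the lowest signal well above background, the DKO mean lay at least 17.6-fold above control and 20.8-fold above AKT1 KO hearts. Those bounds hold for this background correction and for a mean that DKO replicate 3 raised. Without DKO replicate 3 the measured log2 difference from control was 4.12. With normexp correction of the background it was 2.84 over all arrays, a smaller difference than those bounds. The measured means were 0.73 ± 1.18 in DKO and -3.97 ± 0.68 in control hearts (SD, n = 4 each), with a limma adjusted p of 2.71e-06. Because the gene was tested only for being bright in DKO hearts, that p is no independent evidence of a difference, and no exact change is given. DKO replicate 3 exceeded the other DKO hearts by about 2 log2 units or more.

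Tnfrsf12a, the TWEAK receptor, had the smallest adjusted p of the members. It read 6.39, 6.59, 7.13 and 6.72 in DKO, 4.20, 5.24, 4.52 and 4.81 in AKT1 KO, 4.54, 4.67, 4.67 and 4.41 in AKT2 KO, and 4.46, 4.63, 4.27 and 4.58 in control hearts. The lowest DKO heart lay more than 1 log2 unit above the highest of the other 12, which was AKT1 KO replicate 2. The change was 2.22 ± 0.19, or 4.66-fold (limma adjusted p 7.35e-07). It was 1.94 on slide 1 and 2.50 on slide 2, and 2.08 without DKO replicate 3.

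Il1r1 moved little but evenly. Its levels were 0.32, 0.61, 0.44 and 0.36 in DKO, 0.04, 0.08, 0.11 and -0.15 in AKT1 KO, 0.12, 0.30, 0.15 and 0.02 in AKT2 KO, and -0.04, -0.05, -0.09 and -0.14 in control hearts. The DKO hearts lay above all others, with AKT2 KO replicate 2 just below the lowest of them. The change was 0.51 ± 0.09, or 1.43-fold (limma adjusted p 2.58e-04), and was 0.51 on slide 1 and 0.52 on slide 2.

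The second question was what loss of either kinase alone changed in these genes. No member passed the test in AKT1 KO hearts, where 0.670% of all tested genes did by limma, and none was under an unadjusted p of 0.05. On their brightest probes all 10 members overlapped with control, while 7.95% of all tested genes did not. The member changes lay between -0.475 (Socs3) and 0.207 (Tnfrsf12a), with a median of -0.033 for the 9 without Sprr1a, beside -0.045 for all genes. For Socs3 the 95% interval was -1.12 to 0.17, and for Il6st -0.20 to 0.23. The single-knockout tests and intervals share 1 spread with the DKO arrays. The median SD over all genes was 0.249 in DKO and 0.098 in control hearts. With only the groups compared, 146 genes were called in AKT1 KO hearts (92 in the shared fit), and still no member.

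In AKT2 KO hearts no member passed either, where 0.124% of all tested genes did by limma (10 higher and 7 lower, or 10 higher and 13 lower after quantile normalization). The members lay between -0.116 (Il11ra1) and 0.228 (Il1r1), with a median of 0.084 for the 9 without Sprr1a, beside -0.038 for all genes. Il1r1 was the only member under an unadjusted p of 0.05 (limma adjusted p 1), with all 4 AKT2 KO hearts above all 4 control hearts. Such separation held for 7.53% of all tested genes in that comparison. Between AKT2 KO and AKT1 KO hearts 0 of 10 members were called by limma, with 0 under an unadjusted p of 0.05 and 0.860% of all genes called, although with array quality weights Socs3 was called higher in AKT2 KO (0.673, adjusted p 0.0295).

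**Figure D3:**
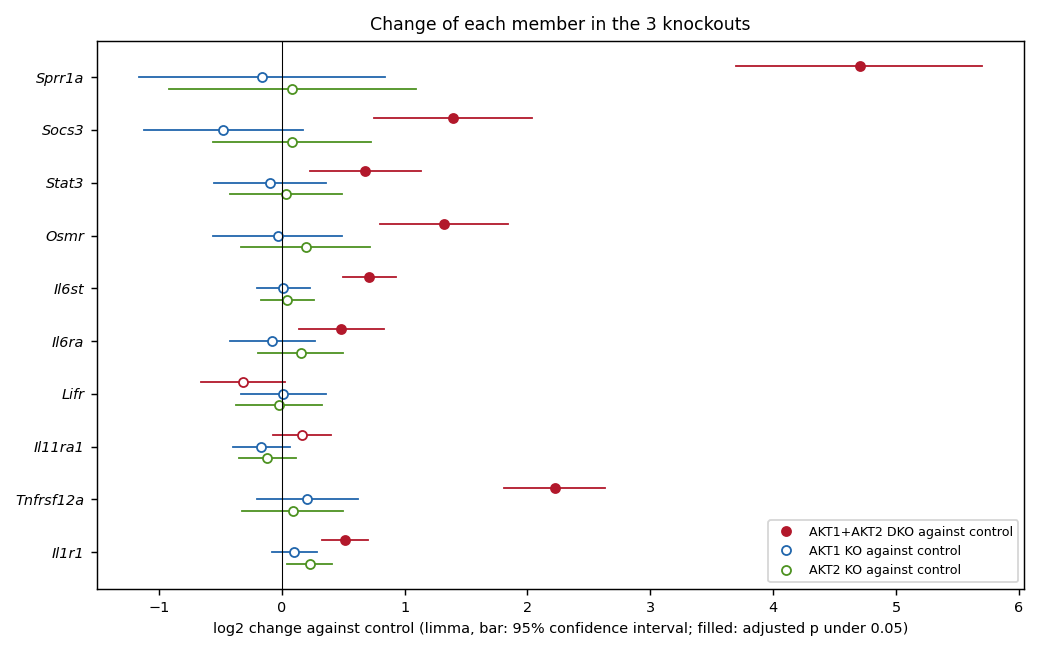
Log2 change against control (horizontal axis) of the 10 members (vertical axis) in DKO, AKT1 KO and AKT2 KO hearts, with 95% intervals from limma as bars and filled points where the adjusted p is under 0.05. In DKO hearts 8 members lie to the right of 0 and pass, and in the single knockouts every point is open; Sprr1a is set against control arrays at background, so its place shows no exact change.

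The double knockout was also set against each single knockout. These comparisons share the DKO arrays with each other and with the comparison to control, so they are given side by side and not as separate evidence. Against AKT1 KO hearts 9 members were higher (26.8% of all tested genes were called higher), with Lifr the exception, and against AKT2 KO hearts 7 were higher (23.5% of all tested genes), the exceptions being Lifr, Il6ra and Il11ra1. Without Sprr1a, whose levels in the single knockouts lie at background on all but 1 array, these are 8 and 6 of 9 members. Tnfrsf12a was 2.01 ± 0.19 higher in DKO than in AKT1 KO hearts and 2.13 ± 0.19 higher than in AKT2 KO hearts. For Socs3 the same differences were 1.87 ± 0.30 and 1.31 ± 0.30, and for Osmr 1.35 ± 0.25 and 1.12 ± 0.25. Il11ra1 was 0.33 ± 0.11 higher in DKO than in AKT1 KO hearts (limma adjusted p 0.022), a call lost after quantile normalization (0.147, adjusted p 0.243) and without AKT1 KO replicate 1 (0.249, adjusted p 0.064), DKO replicate 1 (0.297, 0.0581) or DKO replicate 4 (0.269, 0.0687). Against AKT2 KO hearts Stat3 was 0.65 ± 0.21 higher (adjusted p 0.0246), a call lost without AKT2 KO replicate 2 (0.054), replicate 3 (0.0633) or replicate 4 (0.0637). Il1r1 was 0.29 ± 0.09 higher there (adjusted p 0.0159), a call lost without AKT2 KO replicate 4 (0.0579) or DKO replicate 2 (0.0548). These are the brightest probes. The second Stat3 probe missed against AKT1 KO (0.41, limma adjusted p 0.0886 over all kept probes) and passed against AKT2 KO (0.60, 0.0199). The dimmest Lifr probe was higher than in AKT2 KO hearts (0.47, 0.0116) and missed against AKT1 KO (0.25, 0.147). The second Il6st probe passed against both.

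A last contrast asked whether the double knockout departed from the sum of the single ones, taken as the DKO change less the AKT1 KO change and the AKT2 KO change, each against control. For 5 of the 9 members other than Sprr1a the departure was above 0 and passed the limma test, beside 15.9% of all tested genes. No departure is given for Sprr1a, which was not well above background on any AKT1 KO or control array. The departure was 1.92 ± 0.27 for Tnfrsf12a (adjusted p 2.25e-04), 1.79 ± 0.43 for Socs3 (0.00756) and 0.66 ± 0.14 for Il6st (0.00444). Osmr passed with 1.15 ± 0.35 (adjusted p 0.0251), and missed without control replicate 1 (0.0508) or AKT1 KO replicate 4 (0.0519). Il11ra1 passed narrowly with 0.45 ± 0.15 (adjusted p 0.046) and lost the call in 20 of 29 alternatives, among them leaving out any single control or AKT2 KO array, the replicate block (adjusted p 0.0697) and quantile normalization (0.217, adjusted p 0.28). The departures of Stat3 (0.74 ± 0.30, adjusted p 0.0863), Il6ra, Il1r1 and Lifr did not pass. On the second Stat3 probe the departure was only 0.11 (limma adjusted p 0.795 over all kept probes). Within slide 1 alone Tnfrsf12a, Socs3, Il6st and Osmr passed, and within slide 2 no member did.

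The other genes of the pathway were counted list by list, by role. Each count in DKO hearts is read beside the 23.7% of all tested genes called higher and the 20.3% called lower. Among the ligands, Il6, Il11, Lif, Osm and Clcf1 were not above background by the filter in any group, so their changes could not be measured. Of the 6 ligand genes tested, 2 were lower in DKO hearts, and the median of the 6 was -0.081. Ctf1, which encodes the gp130 cytokine cardiotrophin-1, read -0.08 ± 0.44 in DKO and 1.5 ± 0.12 in control hearts, a fall of 1.59 (limma adjusted p 8.23e-05), and its neighbour Ctf2 fell by 0.53 (adjusted p 0.0284). Only 1 ligand was lower without control replicate 1 or 4 or without DKO replicate 1 or 2. Il27ra was the only other family receptor tested and did not pass (-0.17, adjusted p 0.745), although it was called higher without DKO replicate 3 (0.40, adjusted p 0.0165), while Cntfr was below background.

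Of 16 tested Janus kinases, other STATs and adaptors, 2 were higher and 1 was lower, with a median of 0.075. Stat6 rose by 0.42 (limma adjusted p 0.00314) and the adaptor Shc1 by 0.59 (0.00591), and the adaptor Grb2 fell by 0.41 (0.00269). Jak1, the main kinase of gp130, read 3.15 ± 0.06 in DKO and 2.91 ± 0.08 in control hearts (0.24, adjusted p 0.0662). Without DKO replicate 3 the counts were 5 higher and 2 lower, with Jak1 among the higher genes (0.27, limma adjusted p 0.0466). Of 14 other inhibitors, 4 were higher and none lower, with a median of 0.264, a share of higher genes near the 23.7% of all tested genes. The 4 were the phosphatase Ptpn1 (0.36, adjusted p 0.0101), Socs6 (0.71, 0.0151), Socs1 (0.53, 0.0323) and Pias3 (0.31, 0.0364). Only 2 of these inhibitors were higher without control replicate 3, control replicate 4 or DKO replicate 2. Without DKO replicate 3 there were 3 higher and 1 lower, and without DKO replicate 4 there was also 1 lower.

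Of 20 tested genes known to be induced by gp130 cytokines or STAT3, 10 were higher and 2 lower in DKO hearts, with a median of 0.942. Myc, a growth regulator, read 0.38 ± 0.80 in DKO and -2.87 ± 0.43 in control hearts, and Timp1, an inhibitor of matrix proteases, read 3.89 ± 1.43 in DKO and 0.57 ± 0.17 in control hearts. Their changes were 3.24 (limma adjusted p 1.06e-05) and 3.32 (6.97e-05). Junb, an AP-1 subunit, averaged 4.03 ± 0.26 in DKO and 2.66 ± 0.13 in control hearts, a rise of 1.37 (2.11e-06). Sod2, the mitochondrial superoxide dismutase, is on the same list and fell by 1.29 (2.04e-05). Among the 10 higher genes, Saa3 averaged -4.11 ± 0.9 in control and -0.94 ± 0.95 in DKO hearts. The lowest signal well above background was -4.04 to -2.76 on the control arrays. Saa3 thus lay at background in control hearts and Myc near it, and the Saa3 call may rest on the filter as for Sprr1a. Without DKO replicate 3 the list had 12 higher and 3 lower, and without control replicate 4, DKO replicate 2 or DKO replicate 4 only 1 was lower. By limma, 0 genes of the pathway lists were called in AKT1 KO or AKT2 KO hearts, with 7 and 2 of 87 tested genes at an unadjusted p under 0.05.

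Of 15 other small proline-rich genes listed, 13 had a probe and 5 were tested, of which 1 was higher and 3 were lower, with a median of -0.798. Sprr2b fell by 1.13 (limma adjusted p 3.72e-05), Sprr2k by 0.80 (3.21e-04) and Sprr2j-ps by 0.42 (0.0111), while Sprr2a2 rose by 0.52 (2.51e-04). These copies are similar in sequence, so probes may share signal among them. The Sprr2a2 probe was bright, at 7.56 ± 0.06 in control hearts, and which transcripts it binds is not known here. Keratinocyte markers gave no rise beside Sprr1a: Krt5, Krt1 and Ivl were below background, and of 3 tested markers 0 were higher and 2 lower, or 1 lower in 11 of the 16 fits that left out 1 array, DKO replicate 3 among them.

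Around Tnfrsf12a, 7 of 14 TWEAK signalling genes were higher in DKO hearts and none lower, with a median of 0.287. Among all tested genes 23.7% were called higher and 20.3% lower. Map3k14 (NIK), the kinase that starts non-canonical NF-κB signalling, read 0.97 ± 0.16 in DKO and -0.25 ± 0.03 in control hearts, a change of 1.22 (limma adjusted p 1.84e-07). Nfkb2, the NF-κB subunit it acts on, rose by 0.81 (4.47e-04), Rela by 0.49 (9.34e-04) and the inhibitor Nfkbia by 0.61 (0.00303). Tnfsf12, which encodes TWEAK, rose by 0.28 (0.0485). The count of 7 fell to 4 in the fits without any 1 of the 4 control arrays, without DKO replicate 1 or without DKO replicate 2. Beside Il1r1, 5 of 11 genes of the interleukin-1 family were higher and 1 lower, with a median of 0.027. The co-receptor Il1rap rose by 0.50 (9.91e-04), the adaptor Myd88 by 0.47 (0.0011), Il33 by 0.88 (0.00221) and Il18 by 0.96 (0.0055). Il18 averaged -3.23 ± 0.43 in control hearts, near background, so its call may rest on the filter as for Sprr1a. Il1a and Il1b missed the filter over all arrays. Without DKO replicate 3, Il1b passed it through the DKO arrays and was called higher (1.75, limma adjusted p 0.0108), which made 6 genes higher. As for Sprr1a, that p is no independent evidence of a difference. The 1 lower gene, Irak1 (-0.19, adjusted p 0.048), lost its call in 12 of the 16 fits that left out 1 array.

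**Figure D4:**
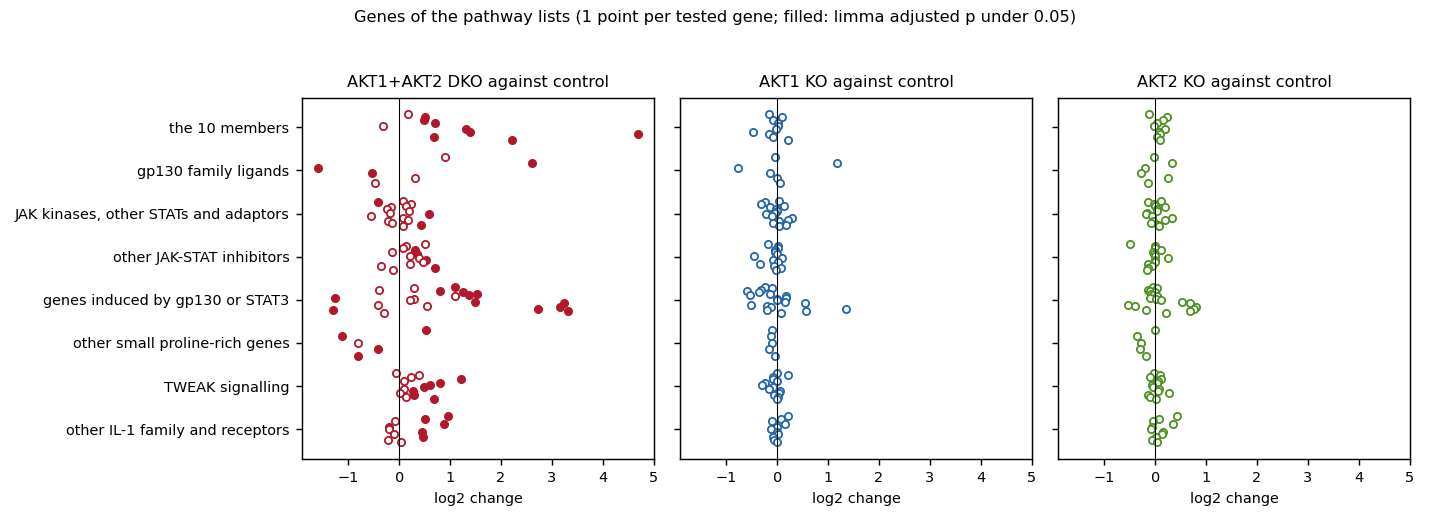
Log2 change against control (horizontal axis) of every tested gene in the member set and 7 pathway lists (vertical axis), for DKO, AKT1 KO and AKT2 KO hearts; filled points pass the limma test. Filled points occur only in the DKO panel, where the genes induced by gp130 or STAT3 spread on both sides of 0 with 10 higher and 2 lower.

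Markers of the cell types of the heart moved in the same DKO hearts, where 23.7% of all tested genes were called higher and 20.3% lower. In whole tissue, fewer cells of a type and less RNA per cell cannot be told apart. All 7 cardiomyocyte markers were lower in DKO than in control hearts, with summed levels (linear, in units of the 75th percentile) of 2918 to 3421 in DKO and 3936 to 4588 in control hearts. All 7 fibroblast markers were higher, with sums of 401.3 to 504.3 in DKO and 262.9 to 283 in control hearts, and 5 of 7 macrophage and monocyte markers were higher, with sums of 36 to 51.97 in DKO and 31.46 to 35.09 in control hearts. The part of these shifts in the member changes was not tested. Each sum weighs its brightest probes most, such as Dcn among the fibroblast markers, so it compares arrays and does not measure a cell type. The macrophage count fell to 3 without control replicate 1, control replicate 4 or DKO replicate 2. Ccr2, among the 5 higher macrophage markers, averaged -3.29 ± 0.13 in control hearts, near background, so its call may rest on the filter as for Sprr1a. The cardiomyocyte count fell to 5 without control replicate 1, 3 or 4 or DKO replicate 1 or 2. The fibroblast count fell to 6 without DKO replicate 1 or 4. Within slide 2 alone 1 cardiomyocyte marker was lower and 2 fibroblast markers were higher. Of 6 smooth muscle and pericyte markers 2 were higher and 1 lower: Tagln (0.76, limma adjusted p 0.00235) and Cnn1 (0.84, 0.00867) rose and Acta2 (-0.49, 0.00883) fell, with sums of 125.6 to 149.4 in DKO and 146.9 to 158.7 in control hearts. Of 6 endothelial markers 0 were higher and 1 lower, Kdr (-0.42, limma adjusted p 0.0215), with sums of 45.86 to 72.09 in DKO and 67.9 to 77.24 in control hearts. The Kdr call was lost without control replicate 1 or 2, and without DKO replicate 3 the endothelial marker Tek was called higher (0.35, adjusted p 9.49e-04). No neutrophil, T cell or epicardial marker was called in DKO against control over all arrays. There 1 T cell marker was lower without control replicate 2, DKO replicate 3 or DKO replicate 4. Against AKT2 KO hearts 1 neutrophil marker was lower in DKO hearts. In the single knockouts no marker of any list was called against control. Of 44 markers, 0 in AKT1 KO and 0 in AKT2 KO hearts had an unadjusted limma p under 0.05.

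Osmr, Tnfrsf12a and Sprr1a were set against all tested genes for likeness of pattern, by the root mean square difference in log2 value over the 16 arrays after each gene was set to its control mean. Nearest to Osmr were Eif1a (0.152), Anxa1 (0.165), Msn (0.167), Klf6 (0.175) and Panx1 (0.185). Nearest to Tnfrsf12a were Slc38a2 (0.217), Tmbim1 (0.257), Nppb (0.259), Igf1r (0.262) and Rcan1 (0.277), among which Nppb encodes the natriuretic peptide BNP of strained heart muscle. Nearest to Sprr1a were Cxcr6 (0.61), Lgals3 (0.645), Nrip3 (0.808), Ccn2 (0.826) and Plcxd2 (0.868), at larger distances, partly over arrays at background. The measure describes these arrays and says nothing of shared control.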

How the data were processed

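Total RNA (100 ng per mouse) was labelled with Cy3 and hybridised to 16 Agilent arrays. Per the file headers, Agilent Feature Extraction 12.0.3.1 made the deposited intensity values, already background-subtracted. The authors' deposited values are log2 values, which they quantile-normalized and centred on each probe's median (correlation of 1 with scanner values treated so). Here, outlier spots were dropped, the remaining spots of a probe were averaged, and log2 intensity was set to the array's 75th percentile, which lay at 333 to 548.1. The 118 probes with no spot left on at least 1 array were not tested. Between 24396 and 30563 of 56605 probes per array were well above background, and the number of arrays limits the precision. A probe was kept if well above background on all 4 arrays of a group, and the brightest kept probe stood for a gene.

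All 16 arrays were fitted with limma 3.58.1 in R 4.3.3 (package data.table, version 1.17.8), with 1 mean per group (12 residual and 2.81 prior degrees of freedom). The fit was tested on simulated data with the same number of genes. P-values were adjusted over 13725 genes in each comparison, and the labels do not say whether the mice were littermates. The members, lists and tests were chosen with earlier results of these data known. Every member was named; of each pathway list, up to 4 called genes with the smallest adjusted p in DKO hearts; and the 5 genes most like Osmr, Tnfrsf12a and Sprr1a. Jak1, Tnfsf12, Il27ra, Irak1, Il1b, Saa3 and the marker genes named fall outside that rule and were chosen after their values were seen. A gene that the rule names is not reported here. Genes were matched to GRCm38.p6 by RefSeq accession, while the file headers name mm9, so no gene coordinates are given and promoter coordinates are those of RefSeq.

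The settings tried in turn were quantile normalization, normexp correction of the background (offset 50), the deposited table in place of the scanner values, a stricter filter or none, the mean of a gene's probes, each probe as a feature, array quality weights, only the groups compared, blocks for slide, for slide and row and for replicate number, each slide alone, and leaving out each array. List counts under these alternatives were added after seeing the data. Replicate numbers follow slide and row in the DKO, AKT2 KO and control groups, and deviations of same-numbered samples correlated at 0.14 to 0.316 (DKO and control) and 0.141 to 0.365 (AKT2 KO and control), but at -0.217 to 0.38 for AKT1 KO and control.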

Additional observations from a re-analysis of the deposited data

Results flagged for a closer look

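Of the 40 sets of 4 arrays (10 members in 4 groups), 4 had an array far from the other 3 by Dixon's ratio at its 95% critical value, and chance alone flags about 1 set in 20. DKO replicate 3 accounted for 3 of them, at 3.64 for Osmr, 6.04 for Stat3 and 1.08 for Lifr. The remaining array was AKT2 KO replicate 1, at 4.89 for Stat3. DKO replicate 3 was the highest DKO array for 6 members and the lowest for 3.

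For 8 members other than Sprr1a the DKO hearts differed from a single knockout by the limma test of the difference itself. In DKO against AKT1 KO hearts the log2 differences were 2.014 for Tnfrsf12a, 1.87 for Socs3, 1.351 for Osmr, 0.775 for Stat3, 0.70 for Il6st, 0.562 for Il6ra, 0.412 for Il1r1 and 0.331 for Il11ra1. Against AKT2 KO hearts they were 2.131 for Tnfrsf12a, 1.311 for Socs3, 1.121 for Osmr, 0.668 for Il6st, 0.647 for Stat3 and 0.286 for Il1r1. The departure from additivity was flagged for Tnfrsf12a (1.924), Socs3 (1.786), Osmr (1.154), Il6st (0.656) and Il11ra1 (0.447). For Sprr1a the same 3 values were 4.864, 4.616 and 4.778. They are no measured changes and no test is read from them, since Sprr1a was well above background on 1 of the 12 arrays outside the DKO group and was tested only for being bright in DKO hearts.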

How the results depend on the processing

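No called member changed sign in any alternative. Osmr and Tnfrsf12a kept their DKO calls against control in every alternative, with log2 changes of 0.873 to 1.76 and 1.94 to 2.5. Sprr1a is counted as called below although it was tested only for being bright in DKO hearts, and it had no value under the stricter filter. Within slide 2 alone, with 2 arrays a group, 3 members were called in DKO against control (8 over all arrays), 2 against AKT2 KO (7) and 0 for the departure from additivity (6), where fewer samples enter the fit. With array quality weights 1 member was called between AKT2 KO and AKT1 KO (0 without weights). Leaving out each array gave 7 to 9 members called in DKO against control, 8 to 9 against AKT1 KO, 5 to 8 against AKT2 KO, 4 to 6 for additivity, and 0 to 0 in the comparisons of AKT1 KO with control, AKT2 KO with control and AKT2 KO with AKT1 KO. The replicate block left 8 members called in DKO against control, 9 against AKT1 KO and 7 against AKT2 KO, and 5 for additivity, where Il11ra1 was lost (adjusted p 0.0697); it changed no other member call.

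Over all genes, alternatives gave 2132 (slide 2 alone) to 8220 calls in DKO against control (6034 as reported), 2498 to 8415 against AKT1 KO (6286), 1565 to 7675 against AKT2 KO (5567) and 121 to 6332 for additivity (3362). They gave 4 to 739 in AKT1 KO against control (92), 2 to 90 in AKT2 KO against control (17) and 8 to 912 between the single knockouts (118), with the highest counts under array weights and the lowest within slide 2. Leaving out DKO replicate 3 gave 224, 33 and 265 in those 3 comparisons. Within slide 2, genes induced by gp130 or STAT3 had 6 higher and 1 lower, TWEAK genes 3 higher and macrophage markers 0. Signal over background limits Sprr1a and the dim second probes of Osmr and Il6ra.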
